A study of Mus musculus with 2 samples.

Results

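The Bcl2 family decides whether a cell commits to mitochondrial apoptosis, and 10 of its genes were followed here in intestinal organoids given the cytokine RankL. Probes were taken if the RefSeq accession in the scanner files belonged to Bcl2a1b, Bcl2, Bcl2l1, Mcl1, Bax, Bak1, Bid, Bbc3, Pmaip1 or Bcl2l11. The rule itself reads no measured value, but the genes were proposed with earlier results of these data known. These 10 genes had 16 probes, out of 32235 genes or accessions and 41174 probes on the arrays. A probe with a ratio on both arrays was called measured by the share of its spots flagged as well above background. That share had to be 0.5 or more on each array for the same RNA, RankL or untreated. By that limit 15 of the 16 probes, all 10 genes, and 12877 genes in all were measured.

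Both groups were small-intestinal organoids of wildtype mice, epithelial structures grown from crypts with EGF, R-spondin and Noggin in the medium. One group received recombinant RankL, for which the labels' protocol gives 50 to 200 ng/ml and medium changes on day 2 and day 5, and the other was cultured without it. The sources used here do not give the strain, age or number of mice, the dose used for these RNAs, or when they were harvested. RankL acts through the receptor RANK and NF-kB and drives the formation of M cells, which sample antigen over Peyer's patches.

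Two-colour arrays compare 2 RNAs on the same spots. The dyes were swapped between the arrays, with RankL RNA labelled with Cy3 on array 1 and Cy5 on array 2. As this is a technical repeat of 1 RNA pair, each group is 1 replicate and no test was possible. Each ± below is the SD of the 2 arrays and does not cover variation among cultures. Its median over all measured genes was 0.15 on the log2 scale and its 90th percentile 0.38. A gene was counted as higher or lower by a size rule, a mean log2 ratio of 1 or more in size (2-fold), and 0.5 or more on each array with the same sign. With the dye-swap sign left unturned, 0 genes met that rule. In bulk RNA, a change in the number of cells of a type and a change in RNA per cell cannot be told apart.

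The family works by protein contacts on the outer mitochondrial membrane. Bax and Bak1 are the effectors that open the membrane and let cytochrome c out. Bcl2, Bcl-xL (Bcl2l1), Mcl1 and A1 (Bcl2a1) hold them back, and the BH3-only proteins Bid, Puma (Bbc3), Noxa (Pmaip1) and Bim (Bcl2l11) bind these guardians or the effectors and tip the balance towards death. In the gut, Puma is known for the death of crypt cells after irradiation, Mcl1 for the survival of the epithelium, and A1 is an NF-kB target best known from blood cells.

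RankL RNA differed from untreated RNA most in 1 guardian and 1 BH3-only gene. Bcl2a1b and Pmaip1 met the size rule upwards and 0 members met it downwards, so 2 of 10 members were higher, where 5.47% of all 12877 measured genes were higher and 2.5% lower. Bcl2a1b passed the limit for measured genes through the RankL RNA alone, where it was high, and so had to differ. Among genes above background in both RNAs, 1 of 9 members was higher, beside 4.65% of all such genes. Mcl1, Bcl2l1, Bbc3 and Bcl2l11 lay between 0.65 and 0.85, short of the rule. Bid was the lowest member at -0.57, and Bax and the probe that gave the value of Bcl2 lay near 0. The members' median was 0.65, against 0.0086 over all measured genes. The sign was the same on both arrays for 9 of 10 members, and for 72.4% of all measured genes.

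**Figure D1:**
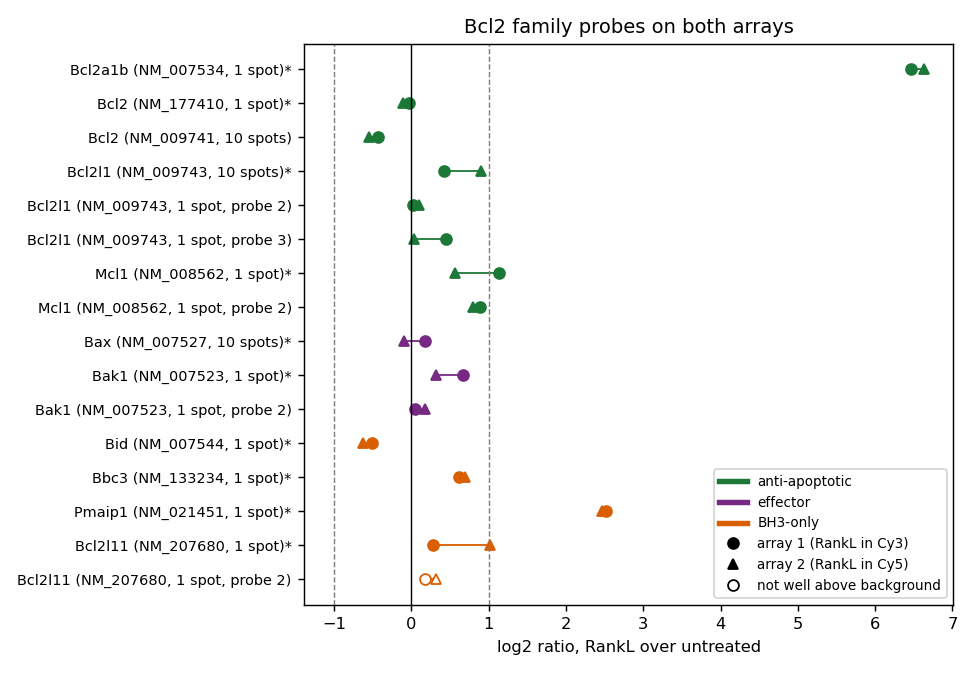
Log2 ratio of RankL over untreated RNA (x axis) for each of the 16 probes of the 10 genes (y axis, with the RefSeq accession and number of spots), as a circle for array 1 and a triangle for array 2, coloured by role. Asterisks mark the probe that gave the gene's value, open symbols a probe not well above background, and dashed lines a 2-fold difference; only Bcl2a1b, at 6.47 and 6.63, and Pmaip1, at 2.52 and 2.47, lie beyond 1 on both arrays.

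Among the anti-apoptotic genes, Bcl2a1b stood apart. Its spot read 5897 over a local background of 28 in the RankL RNA of array 1, and 125 over 108 in the untreated RNA. On array 2 it read 6674 over 109.5 for RankL and 44 over 28 for untreated RNA. The untreated RNA was thus not well above background on either array, while the RankL RNA was. The log2 ratios were 6.47 and 6.63, a mean of 6.55 ± 0.12. With the untreated level replaced by the detection floor of its array where that was higher, the difference was at least 89.6-fold. That bound uses levels after loess and between-array scaling, and holds for this setting only. As the untreated signal is near background, the ratio itself depends on the background correction, with a mean of 7.46 at a normexp offset of 16 and 9.85 by the scanner software's ratios, so no rank is given.

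The mouse has several A1 genes on chromosome 9 with near-identical sequence, and a probe of 1 can bind the RNA of another. A second probe, assigned to Bcl2a1c, read 381.5 over 22 for RankL and 120 over 116.5 for untreated RNA on array 1. On array 2 it read 607 over 108 and 31 over 24. Bcl2a1c was thus also dim in untreated RNA on both arrays, at 3.04 ± 0.29 or at least 6.76-fold higher. It passed the limit for measured genes through the RankL RNA alone. Its ratio also depends on the background correction, with 4.10 at a normexp offset of 16 and 6.42 by the scanner software's ratios. No probe matched the accessions of Bcl2a1a or Bcl2a1d. The values of Bcl2a1b and Bcl2a1c, which differed in size (6.55 and 3.04 in the main setting), are therefore uncertain for single genes. Which A1 genes each value describes was not tested.

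The A1 genes were compared by the 250 bases before their transcription starts, from RefSeq on GRCm38.p6. Each is printed 5′ to 3′ on the gene's strand, with capitals for the longest run, of 31 bases, that all 4 share. Bcl2a1b lies at chr9:89199023-89199272 (+), Bcl2a1a at chr9:88956670-88956919 (+), Bcl2a1d at chr9:88731851-88732100 (-) and Bcl2a1c at chr9:114329885-114330134 (+).
Bcl2a1b: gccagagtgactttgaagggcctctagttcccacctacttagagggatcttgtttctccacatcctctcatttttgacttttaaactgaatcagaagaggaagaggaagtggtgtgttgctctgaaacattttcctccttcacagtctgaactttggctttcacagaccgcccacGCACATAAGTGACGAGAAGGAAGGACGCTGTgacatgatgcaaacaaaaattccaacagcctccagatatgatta
Bcl2a1a: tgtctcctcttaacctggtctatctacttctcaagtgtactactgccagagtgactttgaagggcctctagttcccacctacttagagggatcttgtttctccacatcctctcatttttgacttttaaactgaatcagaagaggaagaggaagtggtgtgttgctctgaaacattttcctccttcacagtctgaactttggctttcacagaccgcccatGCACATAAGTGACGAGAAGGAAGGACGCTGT
Bcl2a1d: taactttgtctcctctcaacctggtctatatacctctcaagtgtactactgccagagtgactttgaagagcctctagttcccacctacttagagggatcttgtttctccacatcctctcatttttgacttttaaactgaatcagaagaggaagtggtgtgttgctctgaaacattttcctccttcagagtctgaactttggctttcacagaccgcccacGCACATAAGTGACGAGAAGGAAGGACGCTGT
Bcl2a1c: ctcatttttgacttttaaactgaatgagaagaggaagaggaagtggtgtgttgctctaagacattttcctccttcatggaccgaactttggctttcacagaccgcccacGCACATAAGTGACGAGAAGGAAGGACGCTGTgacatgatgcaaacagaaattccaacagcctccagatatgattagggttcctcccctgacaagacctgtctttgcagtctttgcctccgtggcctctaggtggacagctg
The shared run begins 75 bases before the annotated start of Bcl2a1b, 31 bases before those of Bcl2a1a and Bcl2a1d and 141 bases before that of Bcl2a1c. Over their overlap, the windows of Bcl2a1b and Bcl2a1a were 99.5% identical (205 of 206 aligned bases), those of Bcl2a1b and Bcl2a1d 96.1%, and those of Bcl2a1b and Bcl2a1c 95.7%. The least alike pair was Bcl2a1d and Bcl2a1c, at 90.7%. Transcript and probe sequences were not compared here, so which A1 transcripts each probe binds was not tested.

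Mcl1 is a short-lived guardian that binds Noxa. The probe that gave its value read 2508.5 for RankL and 1465.5 for untreated RNA on array 1, over backgrounds of 25 and 109. On array 2 it read 2122 and 1411.5, over 108 and 28. RankL was higher on both arrays, with log2 ratios of 1.14 and 0.57 and a mean of 0.85 ± 0.40. A second probe gave 0.89 and 0.80, a mean of 0.85 ± 0.059. Both probes put Mcl1 at about 1.8-fold (1.81 and 1.80), and it fell short of the size rule, except on array 1 alone. Its rank was 863 of 12877 from the highest.

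Bcl2l1, which encodes Bcl-xL, was measured by a probe printed 10 times on each array. On array 1 the RankL signal of its spots ran from 110 to 167.5 (median 129) and the untreated signal from 180 to 188 (median 186), before the higher Cy5 background is taken off. On array 2 they ran from 234 to 322 (median 275.75) and from 71 to 109 (median 79.75). The log2 ratio of single spots lay between 0.26 and 0.74 on array 1, where 6 spots were kept, and between 0.58 and 1.1 on array 2, where 10 were. Every kept spot was above 0 on both arrays. The array means of 0.43 and 0.90 gave 0.66 ± 0.34, so the gap between arrays was larger than the SD over spots within them (0.17 and 0.14).

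The other probes of Bcl2l1 were above background in untreated RNA on 1 and 0 arrays, and gave 0.061 ± 0.054 and 0.24 ± 0.29. By the ratios of the scanner software, the 10-spot probe read 1.23 and met the size rule, under which 8.92% of all genes were higher. Bcl2l1 is thus on either side of the rule, depending on the processing, and its probes differ in size.

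Bcl2, the founding member of the family, had a probe for each of its RefSeq transcripts, and these differed. The one that gave the gene's value (NM_177410) read 347.5 for RankL and 489 for untreated RNA on array 1, over backgrounds of 25 and 107, and 439 and 397.5 on array 2, over 114 and 29. Its log2 ratios were -0.034 and -0.11, a mean of -0.070 ± 0.050, less in size than the median SD between arrays. The probe for NM_009741, printed 10 times, gave -0.43 and -0.54, a mean of -0.48 ± 0.080.

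For that second probe all 10 spots were below 0 on each array, with single spots from -0.57 to -0.22 on array 1 and from -0.68 to -0.30 on array 2. The difference between the Bcl2 probes was 0.39 on array 1 and 0.44 on array 2, in the same direction. Bcl2 is listed at -0.070, and at -0.28 when its probes are averaged. Neither value meets the size rule. By the scanner software's ratios the 10-spot probe read -0.97, just short of the rule, and the probe that gave the gene's value read -0.094. The size for the 10-spot probe thus depends on the processing.

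**Figure D2:**
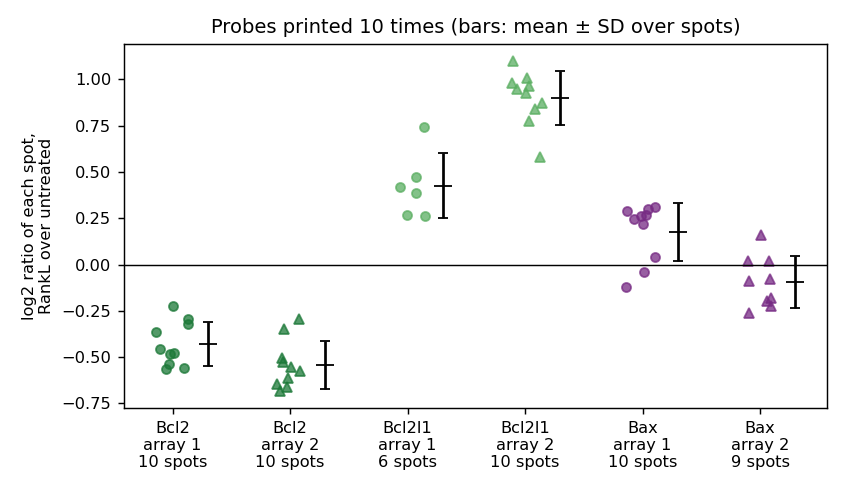
Log2 ratio of RankL over untreated RNA (y axis) of single spots for the Bcl2, Bcl2l1 and Bax probes printed 10 times, on array 1 (circles) and array 2 (triangles), with outlier spots left out; bars are the mean ± SD over spots. All Bcl2 spots lie below 0 and all Bcl2l1 spots above 0, while Bax has 8 of 10 spots above 0 on array 1 and 6 of 9 below 0 on array 2.

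Neither effector met the size rule. Bax read a mean of 640.4 for RankL and 751.75 for untreated RNA over its 10 spots on array 1, over backgrounds of 22.4 and 118.35. Over 9 spots on array 2 it read 658.61 and 628.17, over 112.89 and 22.61. The log2 ratios were 0.18 and -0.093, opposite in sign, with an SD over spots of 0.16 and 0.14, so the mean of 0.042 ± 0.19 was smaller than the spread between arrays. The sign also turned with median centring in place of loess and with the software's ratios.

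Bak1 read 1307 for RankL and 1047 for untreated RNA on array 1, over 23 and 107, and 1464 and 1135 on array 2, over 101.5 and 23.5. RankL was higher on both arrays, by 0.67 and 0.32, a mean of 0.50 ± 0.25. A second probe gave 0.11 ± 0.093. Bak1 exceeded Bax by 0.50 on array 1 and 0.42 on array 2, a mean difference of 0.46 ± 0.057 that was larger than the spread between arrays, although the second Bak1 probe lay close to Bax.

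The BH3-only genes ran in both directions. Pmaip1, which encodes Noxa, the partner of Mcl1 and A1, read 2923 for RankL and 672 for untreated RNA on array 1, over backgrounds of 23 and 112. On array 2 it read 3629 and 634, over 114.5 and 23.5. The RNAs were well apart on both arrays, with log2 ratios of 2.52 and 2.47, a mean of 2.49 ± 0.035 or 5.63-fold. It ranked 128 of 12877 from the highest, with both RNAs well above background, so the value is no bound. Under all 10 alternatives it met the size rule, at 2.37 to 2.56.

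Bbc3, which encodes Puma, read 973 for RankL and 821 for untreated RNA on array 1, over 22 and 112, and 1123 and 645 on array 2, over 106 and 20. The log2 ratios of 0.62 and 0.70 gave 0.66 ± 0.053, higher on both arrays by about 1.58-fold but short of the size rule. Pmaip1 exceeded Bbc3 by 1.83 ± 0.088. Both are known p53 targets.

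Bcl2l11, which encodes Bim, read 247 for RankL and 328.5 for untreated RNA on array 1, over 19 and 125, and 491 and 181.5 on array 2, over 122.5 and 19.5. Its log2 ratios of 0.28 and 1.02 differed most between arrays among the members, a mean of 0.65 ± 0.52. It would meet the size rule on array 2 alone. A second probe was not well above background in either RNA on either array.

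Bid, which caspase-8 cleaves to link death receptors to mitochondria, was the member lowest with RankL. It read 117 for RankL and 288 for untreated RNA on array 1, over 23 and 115, and 191 and 190 on array 2, over 111.5 and 27.5. The log2 ratios were -0.51 and -0.62, a mean of -0.57 ± 0.079, short of the size rule in the main setting and at -0.97 with the software's ratios. Its rank was 11850 of 12877 from the highest. Bbc3 exceeded Bid by 1.23 ± 0.13 and Pmaip1 exceeded it by 3.06 ± 0.043, both more than the arrays differed. Bbc3 and Bcl2l11 differed by 0.013 ± 0.47, less than the spread between arrays.

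**Figure D3:**
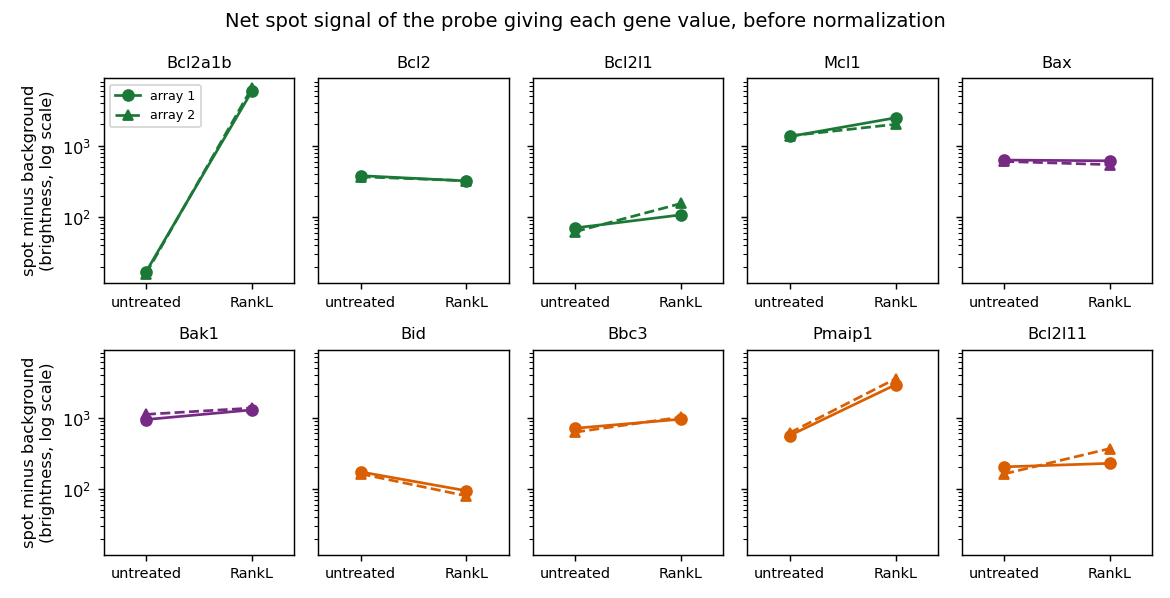
Spot signal minus local background (y axis, arbitrary brightness, log scale) in untreated and RankL RNA for the probe that gave each gene's value, before normalization, with array 1 as circles and a solid line and array 2 as triangles and a dashed line. Colours mark role as in the plot of ratios; Bcl2a1b goes from 17 to 5869 on array 1, Pmaip1 from 560 to 2900, and Bid from 173 to 94.

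By role, the anti-apoptotic members had a median of 0.76 (n = 4 genes), the effectors 0.27 (n = 2) and the BH3-only members 0.65 (n = 4), beside 0.0086 over all measured genes. These medians are of few genes and their ranges overlap, from -0.070 to 6.55, from 0.042 to 0.50 and from -0.57 to 2.49. One guardian and 1 BH3-only gene met the size rule, and 0 effectors did. The order of the medians was not settled. On array 1 alone they were 0.78, 0.43 and 0.45, and on array 2 alone 0.73, 0.12 and 0.86, so that the BH3-only median was the highest there. With probes averaged they were 0.58, 0.17 and 0.65. Without Bcl2a1b, which is dim in untreated RNA, the anti-apoptotic median was 0.66.

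Guardians were also set against effectors within each array. Mcl1 exceeded Bax by 0.96 on array 1 and 0.66 on array 2, a mean of 0.81 ± 0.21. Bcl2l1 exceeded Bax by 0.62 ± 0.53, and Bcl2 lay below it by 0.21 and 0.012, which does not exceed the spread between arrays. Against Bak1, Bcl2 was lower by 0.71 on array 1 and 0.43 on array 2, a mean difference of -0.57 ± 0.20 that was larger than the spread between arrays. Mcl1 was 0.35 ± 0.15 higher than Bak1, while Bcl2l1 was 0.25 lower on array 1 and 0.58 higher on array 2, so its difference from Bak1 had no settled sign. Pmaip1 exceeded its partner Mcl1 by 1.64 ± 0.36. Each contrast uses 1 probe per gene. The other measured probes of Bak1 (0.11), Bcl2 (-0.48) and Bcl2l1 (0.061 and 0.24) read lower, so the differences that involve these genes depend on the probe. All are differences of ratios, and say nothing of how much of each protein is present.

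The promoters of 9 members were searched for NF-kB-type sites on both strands, and that of Pmaip1 was not analysed here. The narrower pattern, GGG, any 2 bases and TTTCC, is one form of the broader pattern, GGG, any 5 bases and CC. The narrower one occurred in 1.41% of 32851 RefSeq windows of 250 bases, and the broader one in 45.8%. Of 14 windows of these members, 11 held the broader pattern, in 8 of 9 genes. The 45.8% is a share of windows, not of genes, and some Bbc3 windows overlap. GC content of the members' windows ran from 44.8% (Bcl2a1b) to 81.6% (Bbc3), and its part in these counts was not tested. The narrower pattern was in 3 windows, those of Mcl1, Bcl2l1 and Bbc3, each on the opposite strand. They are shown with the match in capitals, from GRCm38.p6, for Mcl1 at chr3:95658668-95658720 (+), Bcl2l1 at chr2:152830901-152830960 (-) and Bbc3 at chr7:16309422-16309481 (+).
Mcl1: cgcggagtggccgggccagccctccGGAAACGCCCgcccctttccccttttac
Bcl2l1: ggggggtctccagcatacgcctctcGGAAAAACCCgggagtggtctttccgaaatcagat
Bbc3: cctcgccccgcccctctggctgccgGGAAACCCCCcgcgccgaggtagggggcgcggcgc
The matches begin 28, 218 and 136 bases before the annotated starts, and Bcl2l1 and Bbc3 each have other windows without one. The window of Bcl2a1b, the member with the highest ratio, held neither pattern. A match of letters is not a binding site, and its absence from 250 bases says nothing about the factor.

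Of 16 other Bcl2 family genes, 9 were measured. By the size rule 1 was higher and 1 lower, and the median of the 9 was 0.065. The gene that was higher was Bcl2a1c, described above, which passed the limit for measured genes through the RankL RNA alone. Bcl2l15, a family member expressed in the gut, was lower. It read 1027 for RankL and 3106 for untreated RNA on array 1, over 24.5 and 113.0, and 1282 and 3803 on array 2, over 115 and 22. The log2 ratios of -1.24 and -1.60 gave -1.42 ± 0.25, or 2.68-fold lower, at rank 12724 of 12877.

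Bcl2l14 was at 0.54 ± 0.00080 and the BH3-only gene Bmf at 0.44 ± 0.31. The guardian Bcl2l2 was at 0.065 ± 0.29, Bcl2l12 at 0.18 ± 0.032 and Bcl2l13 at -0.12 ± 0.28. Bnip3 and Bnip3l, mitophagy receptors with a BH3-like stretch, were at -0.73 ± 0.063 and -0.59 ± 0.17, below 0 on both arrays but short of the rule. Bcl2l10, Bad, Bik and Hrk had a probe but were not measured, and Bok had none by accession.

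Downstream of the membrane, cytochrome c builds the apoptosome with Apaf1 and caspase-9, which starts the executioner caspases, and the inhibitor of apoptosis proteins (IAPs) block these steps. Of 19 listed genes of this pathway, 17 were measured. By the size rule 2 of these were higher and 0 lower, and their median was 0.025. Htra2, a mitochondrial protease that binds IAPs, gave signals of 7012 and 7947 in RankL RNA on arrays 1 and 2, and of 2497 and 2371 in untreated RNA. RankL was higher on both, by 1.85 ± 0.089 or 3.59-fold. Birc3, which encodes cIAP2 and is an NF-kB target, was at 1.55 ± 0.038 or 2.94-fold.

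The lowest of that list was Endog, a mitochondrial nuclease, at -0.94 ± 0.22, just short of the rule, which it met with the software's ratios (-1.09), with median centring and on array 2 alone. Birc2, the cIAP1 gene, which is given here because of its value and not by the naming rule, had a ratio of 0.92 ± 0.35. It met the rule with a normexp offset of 16 (1.08), with the software's ratios (1.36) and on array 2 alone (1.17), which makes 3 genes of the list higher.

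Of 12 death receptor genes, 11 were measured and 0 met the size rule in either direction. Over all measured genes 5.47% were higher and 2.5% lower. The median of the 11 was 0.34 and 9 lay above 0, beside a median of 0.0086 and 6570 of 12877 above 0 over all measured genes. Cflar, the caspase-8 inhibitor c-FLIP, was highest at 0.83 ± 0.20, although a second measured probe read 0.050. The adaptor Tradd was lowest at -0.13 ± 0.12.

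**Figure D4:**
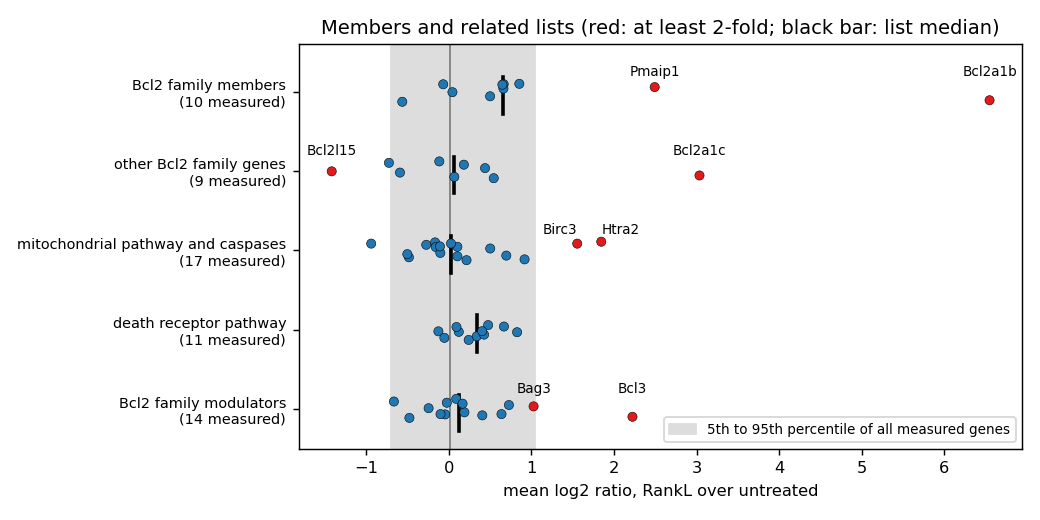
Mean log2 ratio of RankL over untreated RNA (x axis) of each measured gene in the Bcl2 family members and 4 related lists (rows; vertical scatter within a row carries no value). Red points met the size rule and are named, black bars are list medians, and the grey band runs from the 5th to the 95th percentile of all measured genes, -0.70 to 1.05; Bcl2a1b and Pmaip1 lie to the right of it.

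The cell makeup of the cultures was checked with marker genes. All 8 epithelial markers, Epcam and Cdh1 among them, were well above background. Their log2 ratios ran from -0.92 (Krt18) to 0.81 (Vil1), with 4 above and 4 below 0, and Epcam was at 0.15 ± 0.018. Net signals summed here are spot minus background before normalization, so within an array the RNAs also differ in dye. For the epithelial markers the sum was 124657.4 and 155244.3 in RankL RNA on arrays 1 and 2. In untreated RNA it was 221208.1 and 170980.4. After normalization their median log2 ratio was -0.029, and 0 of 8 met the size rule. The M cell genes Spib, Gp2, Ccl9, Ccl20 and Tnfaip2 were all higher with RankL, where 5.47% of all measured genes were. Their summed net signal was 31622.5 and 36532 in RankL RNA and 1502.5 and 1203.5 in untreated RNA. Ccl20 passed the limit for measured genes through the RankL RNA, with untreated RNA above background on 1 array. As A1 is best known from leukocytes, 13 leukocyte markers were read too. Only Coro1a (0.50) and Fcer1g (-0.014) were measured, a Cd3e spot was flagged as an outlier on array 1, and the other 10, Ptprc and Itgam among them, were not. Coro1a passed the limit through the RankL RNA, with untreated RNA above background on 1 array. A second measured Coro1a probe read 0.76, with untreated RNA above background on 0 arrays. Over the 12 markers with values on both arrays, summed net signal was 304.4 and 294.0 in RankL RNA and 248.9 and 294.9 in untreated RNA. Of 8 mesenchymal markers 3 were measured, Pdgfrb (0.90), Acta2 (0.62) and Col1a2 (0.17), all above 0, and 0 met the size rule. Pdgfrb passed the limit for measured genes through the RankL RNA alone, and a second measured Acta2 probe read -0.087. Over the 8 markers, summed net signal was 1962.3 and 2179.2 in RankL RNA and 1486.4 and 1519.5 in untreated RNA. Of 4 endothelial markers 0 were measured. The part of any of these cell types in the members' differences was not tested.

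The members' values were recomputed under 10 alternatives. The sign held in every alternative run for each member except Bax, and only Bcl2a1b, Pmaip1, Bcl2l1, Mcl1 and Bcl2l11 met the size rule in at least 1 of them. The share of all genes that were higher, against which these counts are read, was 6.87% with a normexp offset of 16, 8.92% with the software's ratios or the series matrix, 4.74% with median centring and 2.19% with dim probes included. It was 4.65% for probes above background in both RNAs, 4.89% with probes averaged, 5.47% with outlier spots kept and 5.68% on either array alone. The share lower was 3.32% with the offset of 16, 6.07% with the software's ratios or the series matrix, 3.02% with median centring and 1.0% with dim probes included. It was 2.47% for probes above background in both RNAs, 2.31% with probes averaged, 2.5% with outlier spots kept, 2.56% on array 1 alone and 2.87% on array 2 alone.

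**Figure D5:**
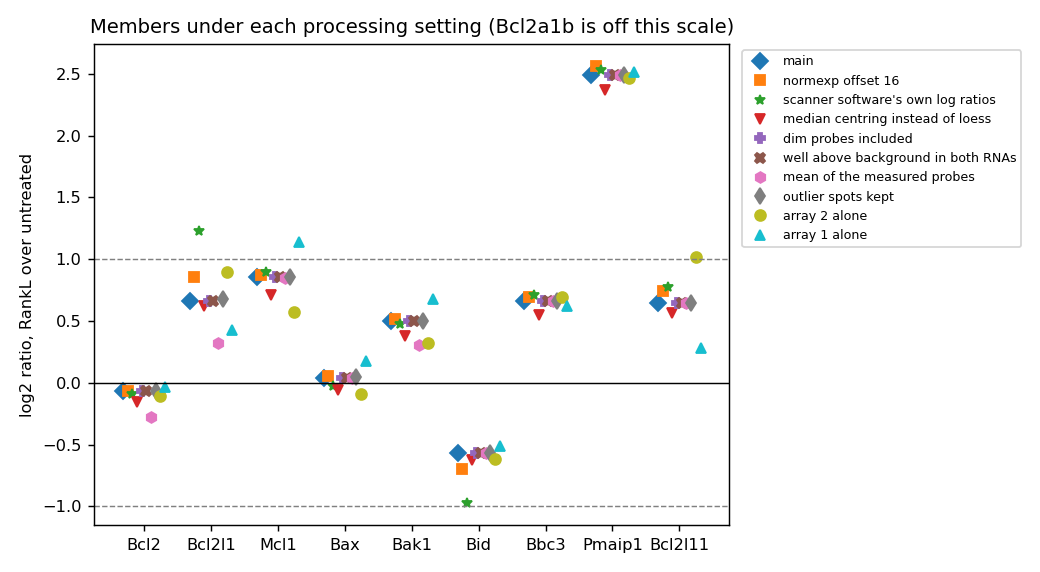
Log2 ratio of RankL over untreated RNA (y axis) of 9 members (x axis) under the main setting and each alternative (symbols; the series matrix values equal the software's and are not drawn). Dashed lines mark a 2-fold difference; Pmaip1 stays between 2.37 and 2.56, Bcl2l1 runs from 0.32 to 1.23, and Bax lies on both sides of 0.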

How the data were processed

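Total RNA of RankL-treated and untreated mouse small-intestinal organoids was compared on 2 dual-colour Agilent arrays, a dye-swapped pair per the labels. The scanner files deposited by the authors hold median spot and local background intensity in Cy3 and Cy5, log10 ratios of red over green that the software background-subtracted and dye-normalized, and flags with other spot properties, per the file headers (Feature Extraction 10.5.1.1; the submitters' processing notes name 8.5.1.1). The deposited series matrix holds the same log10 ratios, turned to RankL over untreated (largest difference 5e-06).

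Here intensities were corrected by normexp (offset 50), which compresses ratios of dim spots, and normalized by loess within each array in limma 3.58.1 (R 4.3.3). Control spots had weight 0, and flagged outlier spots (170 on array 1, 164 on array 2) were left out. Spots of a probe were averaged, ratios were set to run as RankL over untreated, and both arrays, which lay on 1 slide, were averaged as 1 replicate, so no test was possible. Probes were named through RefSeq accessions (26918 of 41174 probes), and a gene took its brightest measured probe. The code was tested on simulated data.

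Named genes were all members, every measured other family gene, and from each pathway list those past the size rule with the highest and lowest ratio; exceptions are marked. Members and lists were chosen with earlier results of these data known.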

Additional observations from a re-analysis of the deposited data

How the results depend on the processing

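Each result was recomputed with 10 alternatives, from the normexp offset to single arrays. A single array differs from the mean of both by less than their SD by construction, and the series matrix repeats the software's ratios. Over the other 7 alternatives, 57 of 69 values of single members moved by less than the SD between arrays and 12 by more. Over all 10, 0 called values changed sign. Mcl1 exceeded Bcl2l1 in the main setting (0.85 and 0.66), but not with the software's ratios (0.90 and 1.23) or on array 2 alone (0.57 and 0.90). With an offset of 16, the anti-apoptotic median was 0.87 in place of 0.76. With the software's log ratios and with the series matrix values, it was 1.06, and 1148 genes were higher and 781 lower in place of 704 and 322, and 1 gene of the mitochondrial pathway, Endog, was lower in place of 0. With median centring, which lowered the median of all genes by less than 0.1, the anti-apoptotic median was 0.66 and 1 mitochondrial pathway gene was lower. On the modulator list 1 gene, Bcl3, was higher in place of 2, as Bag3 fell short. Over genes above background in both RNAs, the anti-apoptotic median was 0.66 and 1 member was higher in place of 2. There 0 other family genes were higher in place of 1, since Bcl2a1b and Bcl2a1c are dim in untreated RNA. With probes averaged, the anti-apoptotic median was 0.58. Leaving out 1 array gave 1 to 2 genes of the modulator list higher and 0 to 1 mitochondrial pathway genes lower. The count of mitochondrial pathway genes that were higher went from 2 to 3, through Birc2, with the offset of 16, the software's ratios, the series matrix and array 2 alone. On array 1 alone Mcl1 read 1.14, and on array 2 alone Bcl2l11 read 1.02. Signal near background limits Bid, Bcl2l1 and the 10-spot Bcl2 probe, whose net brightness is low. No paired analysis was possible because both arrays hold the same RNA pair and there is 1 group of ratios.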

Other observations

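Genes that act on the Bcl2 family from outside it were read as a further list, called modulators here. The list also holds Bcl3 and Bcl10, which share the name but are not such genes. Of 15 such genes 14 had a measured probe. By the size rule 2 were higher and 0 lower, and the median was 0.13. Bcl3, a nuclear IkB-like partner of p50 and p52 that carries the name of a lymphoma locus and is not a Bcl2 homologue, was highest. Its signal was 6594.5 and 7248 in RankL RNA on arrays 1 and 2, and 1728 and 1723 in untreated RNA. Its log2 ratio was 2.22 ± 0.17 or 4.67-fold. Bag3, a co-chaperone that binds Bcl2, was at 1.03 ± 0.099, with 1.1 on array 1 and 0.96 on array 2. Its call was lost with median centring (0.92) and on array 2 alone. That leaves Bcl3, which is not a modulator of the family, as the 1 gene of the list that was higher. Bag1, another co-chaperone of the family, was lowest at -0.67 ± 0.30.

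Trp53 and Bcl10 were named after their values were seen. Trp53, whose protein drives transcription of Bbc3 and Pmaip1, was at 0.64 ± 0.48 by a probe printed 10 times, with 0.30 on array 1 and 0.98 on array 2, while a second measured probe read 0.024 ± 0.022. Bcl10, a signalling adaptor upstream of NF-kB, was at 0.73 ± 0.041.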
